A study of Mus musculus with 16 samples.

Results

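Transforming growth factor beta (TGF-beta) was followed here through 9 genes in cultured mouse muscle cells: the ligand genes Tgfb1, Tgfb2 and Tgfb3, the gene of the ligand-associated matrix protein Ltbp2, and the target genes Pmepa1, Smad7, Skil, Tgfbi and Postn. They were chosen by name, as readouts of Repsox, which blocks the kinase of TGFBR1, the type I receptor, and are 9 of 35613 genes in the files. Each value was obtained by adding up the estimated reads of all transcripts of a gene.

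TGF-beta ligands are secreted in a latent form, held by binding proteins in the matrix, and signal once released through a pair of kinase receptors to SMAD2 and SMAD3, which enter the nucleus and switch on genes. Among these genes are inhibitors of the pathway itself, such as Smad7, Skil and Pmepa1, so their RNA is widely used as a gauge of signalling. In skeletal muscle TGF-beta is known as a brake on myoblast differentiation and fusion and as a driver of fibrosis.

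The cells were primary muscle cells of Pax7-nGFP mice, in which the nuclei of Pax7-expressing muscle stem cells carry GFP, and all parental lines of the replicated groups came from 16-week-old males. MPC, a term that the labels do not spell out, were grown as myoblasts for 2 to 3 passages and then passaged another 5 to 6 times in medium containing 5 µM forskolin, 5 µM Repsox and 3 µM of a compound that the labels spell CHIR9901. They were profiled after sorting for GFP (GFP+ MPC) and unsorted (bulk MPC). Differentiated myoblasts had spent 3 days in a low horse serum medium and were at passage 4 to 5, GFP+ myoblasts were sorted at passage 5 to 6, and bulk myoblasts were taken at passage 3. Each of these 5 groups has 3 replicates. A single library of high-passage GFP+ MPC came from GFP-negative myoblasts of a 39-week-old female, moved at passage 8 to the same medium for 2 passages and sorted for GFP. The MPC cultures differ from the myoblasts in medium, serum and time in culture as well as in the 3 compounds, and sorted cells had another RNA kit than unsorted cells, so what belongs to Repsox alone cannot be told apart.

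The 16 libraries held about 19300000 to 29100000 estimated counts each. Levels within a gene are given as CPM, the count scaled to a common library total, with TMM scaling as a correction for library composition, and levels between genes as TPM, the estimated share of a transcript in all transcripts on the same scale, which takes account of length. Changes are log2 fold changes with standard errors from edgeR's quasi-likelihood test, and a gene was called changed at a Benjamini-Hochberg adjusted p under 0.05 over the 15533 genes tested. All 9 genes were among them. As a check of the muscle label, Pax7 was at 596 to 868 CPM in GFP+ MPC, 57.2 to 137 in bulk MPC, 25.5 to 65.1 in differentiated myoblasts, 829 to 1006 in GFP+ myoblasts and 528 to 658 in bulk myoblasts. Myod1, a myogenic transcription factor, was at 95.1 to 285 CPM in GFP+ MPC, 148 to 180 in bulk MPC and 299 to 959 CPM in the other groups. Markers of differentiating muscle (Myog, Myh3, Ckm, Acta1 and Mymk) summed to 470 to 1077 CPM in GFP+ MPC against 33039 to 44133 CPM in bulk MPC. In unsorted cells, fewer cells of a type and less RNA per cell cannot be told apart. Library 2 of bulk MPC stood apart for fibroblast markers, which summed to 984 CPM against 226 and 376 CPM in the other libraries of its group, and values that rest on it are given with and without it.

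In GFP+ MPC against GFP+ myoblasts, 8 of the 9 genes changed, 3 higher and 5 lower, where 48.6% of all genes tested changed (26% higher and 22.7% lower). Tgfb2, Tgfb3 and Postn were higher, and Tgfb1, Ltbp2, Pmepa1, Smad7 and Skil were lower. In bulk MPC against bulk myoblasts 7 changed, 2 higher and 5 lower, against 58.5% of all genes (28.4% higher and 30.1% lower). Those were the same genes in the same directions except Postn, which was not called. Differentiated myoblasts against bulk myoblasts gave 5 changes, 2 higher and 3 lower, against 54.2% of all genes (25.6% higher and 28.6% lower). That is 5 of 9 genes against a background of about the same share. The last 2 comparisons share the bulk myoblast libraries. Bulk MPC against differentiated myoblasts gave 4 changes, all lower, against 43.8% of all genes (24.4% higher and 19.4% lower). Of the sort, GFP+ MPC against bulk MPC gave 5 (1 higher and 4 lower) against 66.6% of all genes (32.9% higher and 33.7% lower), and GFP+ myoblasts against bulk myoblasts gave 2, both lower, against 30% of all genes (12.7% higher and 17.4% lower). The MPC change itself differed between sorted and unsorted cells for 5 of the 9 genes, 2 higher and 3 lower, against 37.1% of all genes (20.3% higher and 16.8% lower).

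**Figure D1:**
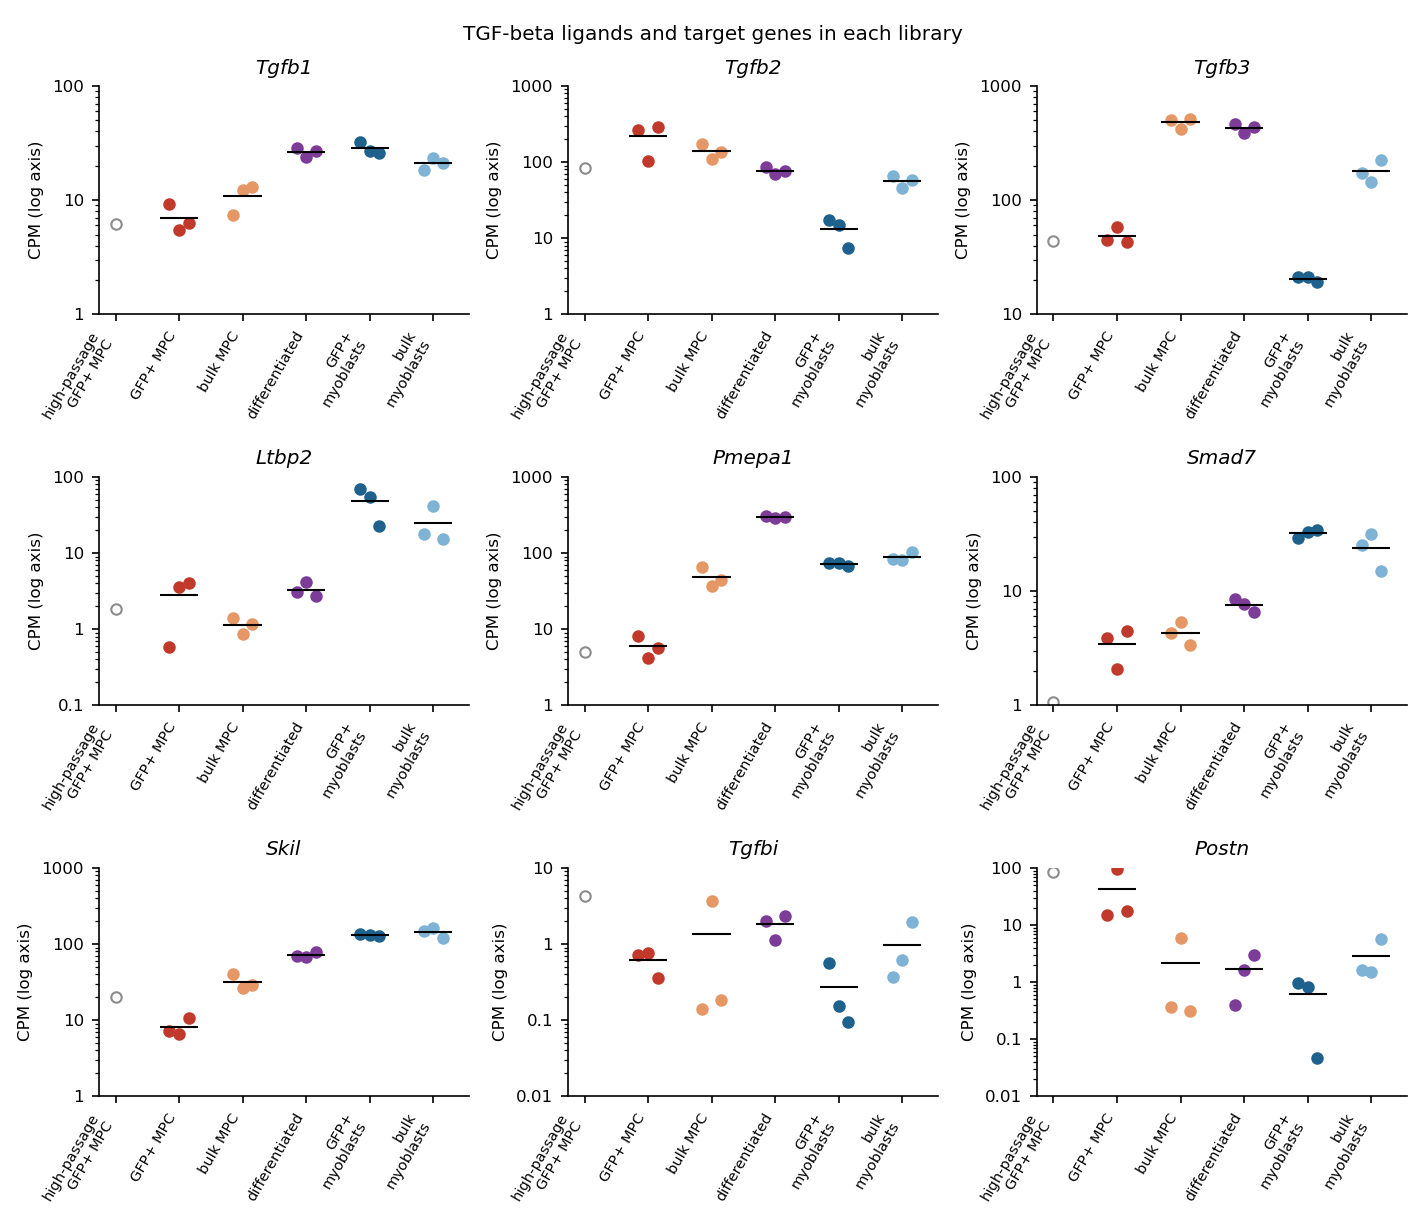
Level of each of the 9 genes in each library, in TMM-scaled CPM on a log axis. Filled points are the 3 replicates of a group, lines are group means, and the open point is the single high-passage library. Tgfb2 lies at 104 to 290 CPM in GFP+ MPC and at 7.52 to 17.1 CPM in GFP+ myoblasts, whereas Skil lies at 6.53 to 10.7 CPM in GFP+ MPC and at 126 to 137 CPM in GFP+ myoblasts.

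Among the ligand genes, Tgfb2 had the largest increase in sorted cells. Its RNA was at 265, 104 and 290 CPM in the 3 libraries of GFP+ MPC, against 17.1, 14.9 and 7.52 CPM in GFP+ myoblasts, a log2 fold change of 4.05 ± 0.39 (adjusted p = 3.05e-06, edgeR). Library 2 was the lowest of GFP+ MPC, and it was still above every GFP+ myoblast library. In unsorted cells Tgfb2 was at 172, 109 and 137 CPM in bulk MPC, against 65.4, 46.0 and 58.5 CPM in bulk myoblasts (log2 fold change 1.30 ± 0.35, adjusted p = 0.00567, edgeR). Those groups did not overlap either. The MPC change was larger in sorted than in unsorted cells, by 2.75 ± 0.49 on the log2 scale (adjusted p = 0.000928, edgeR). GFP+ myoblasts were lower than bulk myoblasts by a log2 fold change of -2.09 ± 0.36 (adjusted p = 0.000925, edgeR), whereas the change between GFP+ MPC and bulk MPC did not pass the test (0.66 ± 0.34, adjusted p = 0.105, edgeR) and the 2 groups overlapped. Without library 2 of GFP+ MPC that last difference passed, with adjusted p = 0.00575, and it also passed with library totals alone, at a log2 fold change of 1.15 (adjusted p = 0.00814). Differentiated myoblasts had 86.9, 69.4 and 75.8 CPM, below all bulk MPC libraries and above all bulk myoblast libraries. Their change against bulk myoblasts did not pass (0.45 ± 0.34, adjusted p = 0.284, edgeR), nor did that of bulk MPC against them (0.85 ± 0.34, adjusted p = 0.0599, edgeR), which passed with the replicate block (adjusted p = 0.0444).

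Tgfb1, the prototype of the family, went the other way. Its CPM were 9.20, 5.52 and 6.27 in GFP+ MPC, against 32.5, 26.9 and 25.7 in GFP+ myoblasts, with no overlap (log2 fold change -2.02 ± 0.22, adjusted p = 1.09e-05, edgeR). In unsorted cells they were 7.43, 12.4 and 13.0 in bulk MPC, against 18.5, 23.5 and 21.2 in bulk myoblasts (log2 fold change -0.95 ± 0.22, adjusted p = 0.00230, edgeR). The change in sorted minus that in unsorted cells was -1.07 ± 0.31 on the log2 scale (adjusted p = 0.0155, edgeR), a call that was lost with library totals alone (-0.71, adjusted p = 0.0967). Differentiated myoblasts had 28.9, 23.9 and 26.7 CPM, and bulk MPC were below them (log2 fold change -1.28 ± 0.22, adjusted p = 0.000491, edgeR), whereas the change of differentiated against bulk myoblasts did not pass (0.33 ± 0.21, adjusted p = 0.208, edgeR). The call of a lower Tgfb1 level in GFP+ MPC than in bulk MPC (log2 fold change -0.64 ± 0.22, adjusted p = 0.0212, edgeR) rests on few libraries, since it was lost without library 2 or 3 of either group (adjusted p = 0.0701 to 0.0903), with library totals alone (-0.18, adjusted p = 0.529) and in a fit of these groups alone (adjusted p = 0.114).

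Tgfb3 was highest in bulk MPC and differentiated myoblasts. It was at 44.8, 57.7 and 43.0 CPM in GFP+ MPC, against 21.1, 21.2 and 19.04 CPM in GFP+ myoblasts (log2 fold change 1.25 ± 0.16, adjusted p = 4.43e-05, edgeR). Levels were higher in unsorted cells, with 503, 417 and 517 CPM in bulk MPC, against 174, 144 and 226 CPM in bulk myoblasts (log2 fold change 1.40 ± 0.16, adjusted p = 1.07e-05, edgeR). Differentiated myoblasts had 467, 386 and 435 CPM, which overlapped bulk MPC. The MPC change did not differ detectably between sorted and unsorted cells (-0.16 ± 0.23, adjusted p = 0.624, edgeR; 0.22 with library totals alone). Between sorted and unsorted cells Tgfb3 had a log2 fold change of -3.30 ± 0.17 in GFP+ MPC against bulk MPC (adjusted p = 7.76e-09, edgeR), and of -3.15 ± 0.17 in GFP+ myoblasts against bulk myoblasts (adjusted p = 5.19e-08, edgeR).

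Across the 15 replicated libraries, the genes most like Tgfb3 in log2 CPM were Actn2, which encodes the Z-disc protein alpha-actinin, with r = 0.9988, and Klhl41, a sarcomere-associated gene, with r = 0.9959, out of 9206 genes compared. These libraries share groups and cultures, so the correlations describe them only. Markers of differentiating muscle moved with Tgfb3, at 470 to 1077 CPM in GFP+ MPC, 33039 to 44133 CPM in bulk MPC, 38849 to 44699 CPM in differentiated myoblasts, 251 to 402 CPM in GFP+ myoblasts and 12263 to 17189 CPM in bulk myoblasts. Their part in the Tgfb3 values was not tested. The annotated gene overlaps Ttll5 on the opposite strand, which had at most 941 counts in a library, where Tgfb3 had at least 400, and the libraries were stranded.

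By TPM, which can be compared between genes, the ligand RNA pool differed in make-up as well as in size. In GFP+ MPC, Tgfb2 held 81.8%, 60.4% and 83.3% of the summed TPM of the 3 ligand genes, against 22.8%, 21.9% and 10.8% in GFP+ myoblasts, and the ranges did not overlap. Tgfb1 held 4.36%, 5.13% and 3.82% of the pool in GFP+ MPC, against 54.9%, 51.5% and 62.6% in GFP+ myoblasts, where it was the leading ligand gene. The pool itself summed to 139, 76.3 and 155 TPM in GFP+ MPC, against 46.4, 38.3 and 32.6 TPM in GFP+ myoblasts. All 3 unsorted groups were led by Tgfb3, with 74.0% to 74.5% of the pool in bulk MPC, 77.7% to 79.3% in differentiated myoblasts and 62.5% to 69.2% in bulk myoblasts. These shares were computed after the values of the genes had been seen and carry no test. They count all transcripts of a gene, also those that are not protein coding. Tgfb2-202, a transcript of 744 bases with a retained intron, held 20% to 22.6% of Tgfb2 TPM in GFP+ MPC and 0% to 34% in GFP+ myoblasts.

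**Figure D2:**
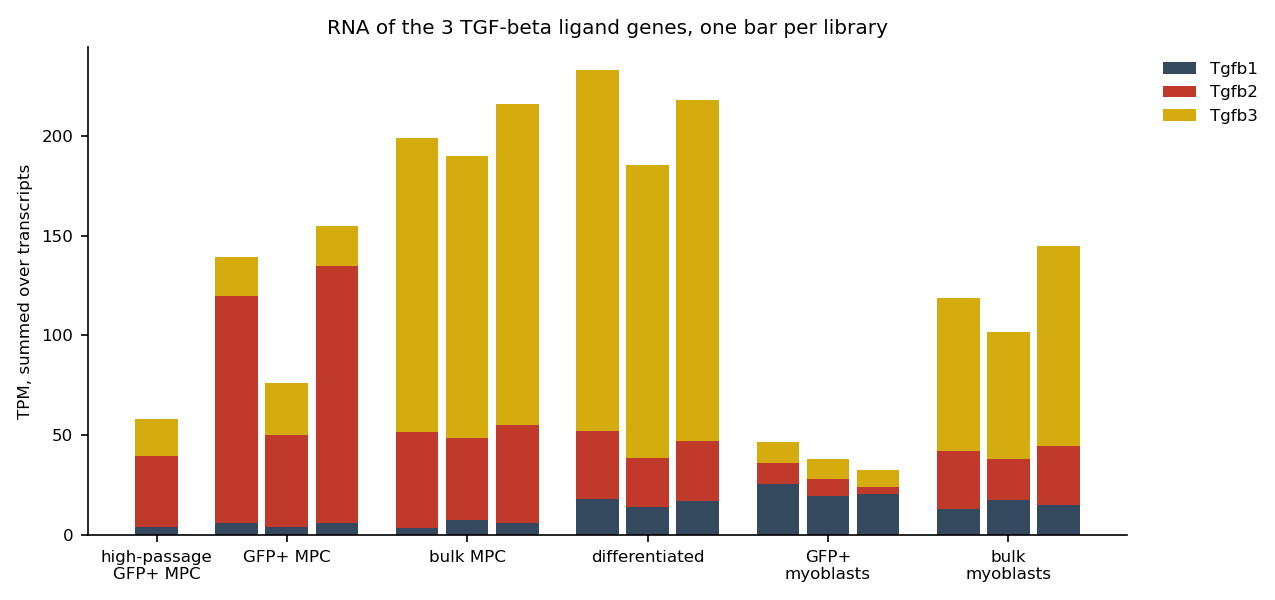
Summed TPM of Tgfb1, Tgfb2 and Tgfb3 in each library, stacked, with the axis starting at 0. GFP+ MPC are mostly Tgfb2 (60.4% to 83.3% of the pool) and GFP+ myoblasts mostly Tgfb1 (51.5% to 62.6%), and the unsorted groups are mostly Tgfb3.

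The promoters of Tgfb2, Tgfb1 and Ltbp2 are shown because the first and the others moved in opposite directions in MPC. Each is the 250 bases before the annotated start in RefSeq on GRCm38.p6, from 5′ to 3′ on the strand of the gene. Capitals mark CAGAC or its reverse complement GTCTG, the letters of a SMAD-binding element, and TGACG or its reverse complement CGTCA, part of the cyclic AMP response element, searched because forskolin raises cyclic AMP. The search for TGACG was added after values had been seen. Tgfb2 spans chr1:186705990-186706239 on the minus strand, Tgfb1 chr7:25686752-25687001 on the plus strand, and Ltbp2 chr12:84876492-84876741 on the minus strand.
Tgfb2: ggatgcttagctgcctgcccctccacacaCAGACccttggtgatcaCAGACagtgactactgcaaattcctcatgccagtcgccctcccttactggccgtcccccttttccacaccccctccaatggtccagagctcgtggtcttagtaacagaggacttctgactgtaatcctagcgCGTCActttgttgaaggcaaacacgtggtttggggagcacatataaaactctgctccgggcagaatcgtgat
Tgfb1: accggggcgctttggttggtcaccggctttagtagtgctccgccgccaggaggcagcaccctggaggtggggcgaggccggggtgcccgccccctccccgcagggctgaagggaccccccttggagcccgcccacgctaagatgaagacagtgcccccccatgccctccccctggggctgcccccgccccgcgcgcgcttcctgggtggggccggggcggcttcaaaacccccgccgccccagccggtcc
Ltbp2: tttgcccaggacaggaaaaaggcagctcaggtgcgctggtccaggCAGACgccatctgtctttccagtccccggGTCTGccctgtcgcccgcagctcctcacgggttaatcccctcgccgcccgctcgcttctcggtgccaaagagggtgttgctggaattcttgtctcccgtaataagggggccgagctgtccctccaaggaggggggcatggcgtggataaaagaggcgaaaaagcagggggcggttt
Tgfb2 held 2 copies of CAGAC and 1 of CGTCA, Ltbp2 held 1 CAGAC and 1 GTCTG, and the Tgfb1 window held neither motif. Of 32851 mouse promoter windows of this length, 42.2% held CAGAC or GTCTG, 11.7% held 2 or more, and 17.8% held TGACG or CGTCA. Promoter entries matched 5 of the 9 genes. The Tgfbi window held 2 matches to the SMAD motif, and of the 2 windows of Postn 1 held a single match. A match to these letters describes the sequence only and does not show binding.

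Ltbp2 encodes a fibrillin-like matrix protein of the latent TGF-beta binding protein family, although it does not itself bind the latent ligand. Its CPM were 0.59, 3.63 and 4.10 in GFP+ MPC, against 69.9, 54.5 and 22.8 in GFP+ myoblasts, with no overlap (log2 fold change -4.13 ± 0.60, adjusted p = 0.000104, edgeR). In unsorted cells they were 1.40, 0.86 and 1.18 in bulk MPC, against 17.8, 41.3 and 15.4 in bulk myoblasts, a log2 fold change of -4.43 ± 0.65 (adjusted p = 7.81e-05, edgeR). Differentiated myoblasts were also low, at 3.05, 4.16 and 2.75 CPM (log2 fold change against bulk myoblasts -2.90 ± 0.58, adjusted p = 0.00100, edgeR). The difference between bulk MPC and differentiated myoblasts did not pass (-1.53 ± 0.66, adjusted p = 0.0755, edgeR), although it passed with DESeq2 (adjusted p = 0.0241) and in a fit of these groups alone (adjusted p = 0.00366). The longest transcript, Ltbp2-201 of 6769 bases, held 0% to 20.4% of Ltbp2 TPM in GFP+ MPC, where few reads decide such shares, and 43.7% to 56.7% in GFP+ myoblasts. Ltbp2-202 and Ltbp2-203, of 6602 and 6470 bases, held up to 22.3% and 32.5% in GFP+ MPC, and up to 18.1% and 0.23% in GFP+ myoblasts. With length-scaled counts the log2 fold change was -2.96 in GFP+ MPC against GFP+ myoblasts and -3.50 in bulk MPC against bulk myoblasts. An antisense gene, D030025P21Rik, overlaps Ltbp2 and had at most 77 counts in a library, where Ltbp2 had at least 13.

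The inhibitors induced by TGF-beta were lower in both MPC comparisons. Skil encodes SnoN, a protein that holds SMAD complexes inactive. It stood at 7.12, 6.53 and 10.7 CPM in GFP+ MPC, against 137, 131 and 126 CPM in GFP+ myoblasts (log2 fold change -4.01 ± 0.21, adjusted p = 2.55e-08, edgeR), with no overlap. Bulk MPC had 40.7, 26.5 and 29.2 CPM, against 147, 165 and 121 CPM in bulk myoblasts (log2 fold change -2.17 ± 0.19, adjusted p = 1.56e-06, edgeR). The 2 myoblast groups overlapped, with a log2 fold change of -0.14 ± 0.18 in GFP+ against bulk myoblasts (adjusted p = 0.604, edgeR), whereas GFP+ MPC were below bulk MPC by a log2 fold change of -1.98 ± 0.20 (adjusted p = 1.42e-06, edgeR). The decrease in MPC was accordingly larger in sorted cells, by a difference of -1.84 ± 0.27 (adjusted p = 0.000229, edgeR).

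Smad7 encodes the inhibitory SMAD that blocks and degrades the receptors. Its CPM were 3.85, 2.07 and 4.50 in GFP+ MPC, against 29.3, 33.2 and 34.4 in GFP+ myoblasts, a log2 fold change of -3.21 ± 0.31 (adjusted p = 2.98e-06, edgeR). They were 4.30, 5.32 and 3.36 in bulk MPC, against 25.2, 31.4 and 15.03 in bulk myoblasts (log2 fold change -2.46 ± 0.30, adjusted p = 1.71e-05, edgeR). Sorted and unsorted MPC overlapped, and their log2 fold change of -0.32 ± 0.30 did not pass (adjusted p = 0.363, edgeR; 0.15 with library totals alone). Differentiated myoblasts lay between, at 8.47, 7.64 and 6.63 CPM. They were below bulk myoblasts (log2 fold change -1.65 ± 0.29, adjusted p = 0.000347, edgeR). The lower level of bulk MPC against differentiated myoblasts (-0.80 ± 0.30, adjusted p = 0.0414, edgeR) was near the threshold and was lost with the replicate block (adjusted p = 0.0550), without the filter on low counts (adjusted p = 0.0601) and with length-scaled counts (adjusted p = 0.201). It was also lost without library 1 or 3 of bulk MPC or any 1 of the differentiated libraries.

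Pmepa1 encodes a membrane protein that keeps SMAD2 and SMAD3 from the receptor. It was at 8.25, 4.17 and 5.68 CPM in GFP+ MPC, against 74.0, 73.5 and 67.7 CPM in GFP+ myoblasts (log2 fold change -3.57 ± 0.24, adjusted p = 1.76e-07, edgeR). In unsorted cells the decrease was smaller, with 66.1, 36.8 and 44.7 CPM in bulk MPC, against 84.7, 80.7 and 104 CPM in bulk myoblasts (log2 fold change -0.87 ± 0.22, adjusted p = 0.00379, edgeR). The difference between the 2 changes was -2.70 ± 0.32 (adjusted p = 5.68e-05, edgeR). Pmepa1 alone of the 3 inhibitors was higher with differentiation, at 307, 285 and 300 CPM in differentiated myoblasts (log2 fold change against bulk myoblasts 1.73 ± 0.22, adjusted p = 2.98e-05, edgeR), where Skil fell by 0.99 ± 0.19 (adjusted p = 0.000580, edgeR) to 70.1, 67.8 and 79.8 CPM. Bulk MPC, although rich in differentiation markers, had less Pmepa1 than differentiated myoblasts, with a log2 fold change of -2.60 ± 0.23 (adjusted p = 3.21e-06, edgeR), and less Skil (-1.17 ± 0.19, adjusted p = 0.000294, edgeR). The short transcript Pmepa1-203 of 720 bases held 47.0% to 65.2% of Pmepa1 TPM in GFP+ MPC and 58.8% to 65.6% in GFP+ myoblasts, and these ranges overlapped.

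**Figure D3:**
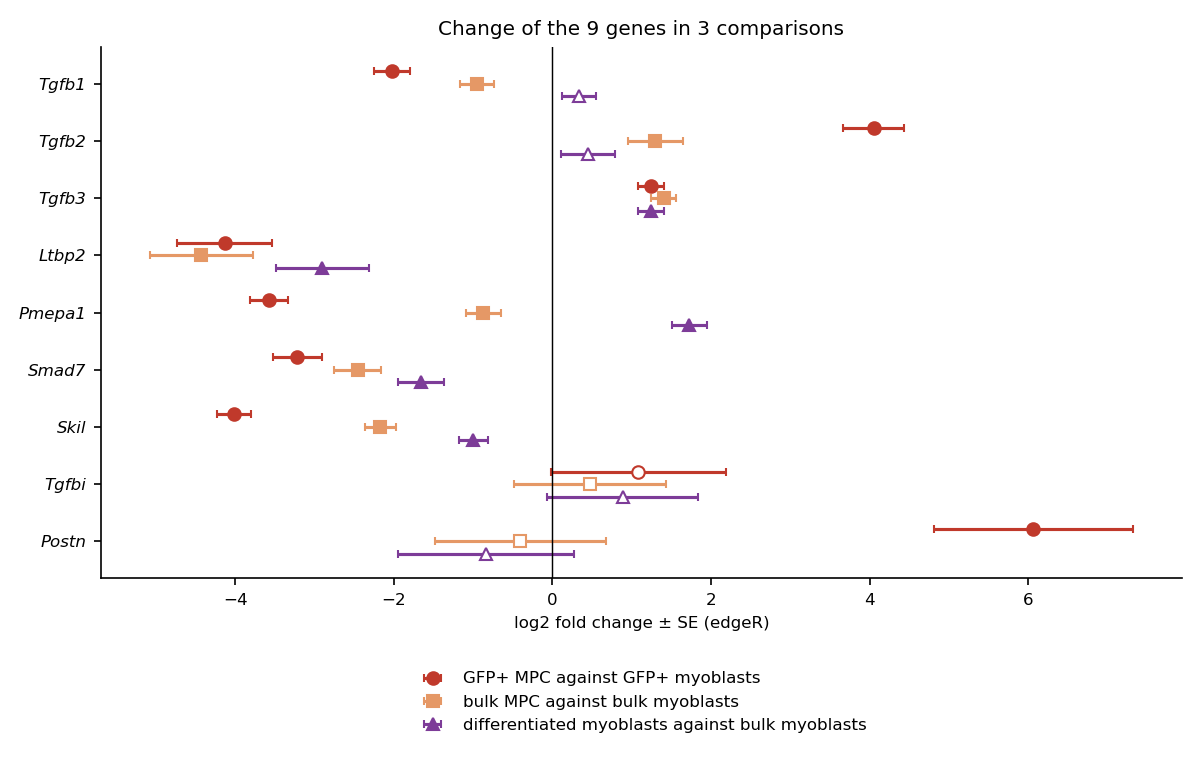
Log2 fold change with its SE of the 9 genes in GFP+ MPC against GFP+ myoblasts, bulk MPC against bulk myoblasts, and differentiated against bulk myoblasts. Filled symbols have an adjusted p under 0.05. Skil and Smad7 are to the left of 0 in all 3 comparisons, whereas Pmepa1 is at -3.57 and -0.87 in the MPC comparisons and at 1.73 with differentiation.

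Neither secreted matrix target was called lower in MPC with all libraries. Postn encodes periostin, a matrix protein of fibroblasts and scar tissue. It stood at 15.3, 97.9 and 17.98 CPM in GFP+ MPC, against 0.97, 0.83 and 0.05 CPM in GFP+ myoblasts, with no overlap (adjusted p = 0.00146, edgeR). Library 2 held most of it, and without that library the log2 fold change was 4.68, against 6.06 ± 1.26 with it. In unsorted cells the groups overlapped, with 0.37, 5.85 and 0.31 CPM in bulk MPC, against 1.64, 1.48 and 5.62 CPM in bulk myoblasts (log2 fold change -0.40 ± 1.07, adjusted p = 0.766, edgeR). That value rests on library 2 of bulk MPC, without which the log2 fold change was -3.07. GFP+ MPC were above bulk MPC by a log2 fold change of 4.30 ± 1.13 (adjusted p = 0.00421, edgeR), at 2.91 without library 2 of GFP+ MPC and 6.96 without library 2 of bulk MPC. The MPC change differed between sorted and unsorted cells by 6.46 ± 1.61 (adjusted p = 0.00706, edgeR), at 5.09 without library 2 of GFP+ MPC, 9.13 without library 2 of bulk MPC and 5.56 without library 3 of bulk myoblasts.

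Marker lists of other cell types were read in the same sorted comparison. The fibroblast list of 11 genes summed to 1089 to 1646 CPM in GFP+ MPC, against 684 to 1032 CPM in GFP+ myoblasts, ranges that did not overlap. Of 9 tested genes 2 were higher, where 26% of all genes were, and 1 was lower, with Lum at 0 in both groups. The median log2 fold change of the list was 0.66, against 0.09 for all genes. Most of that sum was Col3a1, at 986 to 1509 CPM in GFP+ MPC and 581 to 886 CPM in GFP+ myoblasts, a gene also on the list of other TGF-beta targets. The Schwann cell list of 6 genes summed to 128 to 256 CPM in GFP+ MPC, against 11.5 to 14.0 CPM in GFP+ myoblasts, with all 3 tested genes higher and the defining markers Sox10 and S100b at 0 in both groups. The list of pericyte and smooth muscle genes summed to 424 to 881 CPM in GFP+ MPC, against 330 to 670 CPM in GFP+ myoblasts, ranges that overlapped, with 5 of 9 higher and 1 lower. Of all genes tested, 26% were higher and 22.7% lower. The tenocyte sum was lower, at 11.9 to 14.9 CPM against 21.7 to 28.1 CPM. Of its 3 tested genes, however, 1 was higher and 1 lower, and their median log2 fold change was 0.43 against 0.09 for all genes. The leukocyte sum was higher, at 2.45 to 3.76 CPM against 2.00 to 2.28 CPM, with 1 of 2 tested genes higher and 0 lower. The endothelial sums overlapped. Within unsorted cells, library 2 of bulk MPC, the highest for Postn in its group, was also the highest for fibroblast markers. Within GFP+ MPC, library 2, which held most of the Postn, had the lowest fibroblast sum, at 1089 CPM against 1646 and 1128 CPM. That sum is mostly Col3a1, and single genes of the list ran otherwise. Dcn (0.82 to 8.52 CPM in GFP+ MPC) and Col1a1 (0.63 to 2.40 CPM) were both highest in library 2. The part of other cell types in the Postn values was not tested.

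Tgfbi, which encodes a secreted adhesion protein named for its induction by TGF-beta, was at a low level throughout. It was at 0.73, 0.76 and 0.35 CPM in GFP+ MPC, against 0.56, 0.15 and 0.10 CPM in GFP+ myoblasts (log2 fold change 1.08 ± 1.10, adjusted p = 0.438, edgeR). Bulk MPC had 0.14, 3.74 and 0.19 CPM, against 0.37, 0.62 and 1.97 CPM in bulk myoblasts (0.47 ± 0.96, adjusted p = 0.695, edgeR). No comparison of Tgfbi passed the test with all libraries. Library 2 of bulk MPC was far above the other libraries of its group, and without it Tgfbi was lower in bulk MPC than in bulk myoblasts (log2 fold change -2.58, adjusted p = 0.0311, edgeR) and than in differentiated myoblasts (-3.47, adjusted p = 0.0109, edgeR). A transcript with a retained intron, Tgfbi-202, held 46.9% to 83.5% of Tgfbi TPM in GFP+ MPC, and 80.8% to 100% in GFP+ myoblasts. Few reads decide these shares, since Tgfbi had 16, 18 and 9 counts in GFP+ MPC and 18, 4 and 2 in GFP+ myoblasts.

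By mean CPM, the 5 groups ranked differently for the genes. Smad7 and Ltbp2 had the same order at the top, with GFP+ myoblasts first and bulk myoblasts second, and these groups overlapped for both genes. Skil ran upward from GFP+ MPC (8.13 ± 2.27 CPM, SD, n = 3) through bulk MPC (32.1 ± 7.52) and differentiated myoblasts (72.5 ± 6.34), each apart from the next, to GFP+ myoblasts (131 ± 5.38) and bulk myoblasts (145 ± 22.2), which overlapped. For Pmepa1 no neighbouring groups overlapped, from GFP+ MPC (6.04 ± 2.06 CPM) at the bottom to differentiated myoblasts (297 ± 11.5 CPM) at the top. For Tgfb2, GFP+ MPC (220 ± 101) and bulk MPC (139 ± 31.6) overlapped at the top, and GFP+ myoblasts (13.2 ± 5.04) were at the bottom. Across the 15 libraries, log2 CPM of Smad7 correlated with those of Ltbp2 (r = 0.89) and Skil (r = 0.87), and those of Tgfb2 with Smad7 negatively (r = -0.83), as a description of libraries that share groups. The genes most like Smad7 were S100a6 (r = 0.98) and Lgals1 (r = 0.98), and those most like Pmepa1 were Myo1c (r = 0.99) and Gss (r = 0.98).

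The same question was put to other genes of the pathway, in lists of receptors and SMADs, of latent complexes and activators, and of other targets. Of 28 other target genes, 3 were higher and 12 lower in GFP+ MPC against GFP+ myoblasts, where 26% of all genes were higher and 22.7% lower. The median log2 fold change was -0.54 against 0.09 for all genes tested. In bulk MPC against bulk myoblasts 2 were higher and 15 lower, where 28.4% of all genes were higher and 30.1% lower. The median there was -1.24 against -0.01. In differentiated against bulk myoblasts, neither of which was grown with Repsox, 3 were higher and 14 lower. There 25.6% of all genes were higher and 28.6% lower, and the median of the list was -1.64 against -0.03. Marker lists of other cell types were read in these unsorted comparisons, and their summed CPM did not all fall. Fibroblast markers summed to 226 to 984 CPM in bulk MPC and 217 to 303 CPM in differentiated myoblasts, against 798 to 960 CPM in bulk myoblasts, and 3 and 4 of the 9 tested were lower (2 and 0 higher), with Lum at 0 in differentiated and bulk myoblasts and Mfap5 at 0 in bulk MPC. The pericyte and smooth muscle list summed to 463 to 597 CPM in bulk MPC and 1191 to 1294 CPM in differentiated myoblasts, against 1283 to 1599 CPM in bulk myoblasts, with 3 and 4 of 9 lower (3 and 1 higher). Its median log2 fold change was 0.85 in bulk MPC and -0.68 in differentiated myoblasts, each against bulk myoblasts. Of all genes tested, 30.1% and 28.6% were lower. With differentiation, the Schwann cell sum rose to 515 to 555 CPM, from 167 to 298 CPM in bulk myoblasts. The tenocyte sum rose to 73.2 to 82.9 from 45.9 to 66.2 CPM, and the leukocyte sum to 9.06 to 10.8 from 4.60 to 6.44 CPM. Of the genes tested in these 3 lists, in this order, 1 of 3, 1 of 3 and 1 of 2 were higher. In the same order 0, 0 and 1 were lower, and the medians were 0.24, 0.30 and -0.07. Of all genes tested, 25.6% were higher and 28.6% lower. In bulk MPC the tenocyte sum was lower than in bulk myoblasts, at 32.4 to 35.7 CPM. Of its 3 tested genes 1 was higher and 1 lower, where 28.4% and 30.1% of all genes were. Their median log2 fold change was 0.39 against -0.01 for all genes. Col1a1, Col3a1, Tagln and Acta2 are on both a marker list and the target list, and the part of other cell types in the target values was not tested. The largest decreases in sorted MPC were in Ltbp1, Ccn2 and Thbs2. Ccn2, the connective tissue growth factor gene, was at 0.08 to 0.13 CPM in GFP+ MPC and 3.19 to 5.73 CPM in GFP+ myoblasts (log2 fold change -5.34 ± 0.56, adjusted p = 6.71e-06, edgeR). Thbs2, for the matrix protein thrombospondin-2, was at 0.24 to 1.52 CPM in GFP+ MPC and 15.1 to 31.3 CPM in GFP+ myoblasts (-5.07 ± 1.03, adjusted p = 0.00124, edgeR; -6.23 without library 2 of GFP+ MPC).

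Some listed targets went up. Bhlhe40, for a transcriptional repressor, was at 38.8 to 106 CPM in GFP+ MPC and 2.09 to 5.62 CPM in GFP+ myoblasts (log2 fold change 4.38 ± 0.52, adjusted p = 2.01e-05, edgeR; 4.97 without library 3 of GFP+ myoblasts). Tgm2, for the crosslinking enzyme transglutaminase 2, was at 340 to 557 CPM in bulk MPC, against 1.68 to 11.3 CPM in bulk myoblasts (6.41 ± 0.72, adjusted p = 8.91e-06, edgeR; 7.59 without library 3 of bulk myoblasts). In sorted cells it was far lower, at 2.05 to 12.1 CPM in GFP+ MPC and 0.15 to 0.56 CPM in GFP+ myoblasts. Bhlhe40 and Tgm2 were also higher in differentiated than in bulk myoblasts, by log2 fold changes of 2.39 ± 0.46 and 3.05 ± 0.63 (adjusted p = 0.000728 and 0.00124, edgeR; 4.23 for Tgm2 without library 3 of bulk myoblasts).

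The list of latent complexes and activators had 3 of 17 genes higher and 8 lower in GFP+ MPC against GFP+ myoblasts, a median of -0.50, where 26% of all genes were higher and 22.7% lower and their median was 0.09. The counts were the same in bulk MPC against bulk myoblasts, with a median of -0.79, where 28.4% of all genes were higher and 30.1% lower and their median was -0.01. Thbs1, for thrombospondin-1, an activator of latent TGF-beta, was at 2.07 to 8.56 CPM in GFP+ MPC and 684 to 1237 CPM in GFP+ myoblasts (log2 fold change -7.71 ± 0.58, adjusted p = 3.91e-07, edgeR; -8.38 without library 3 of GFP+ MPC). Ltbp1, for the binding protein that anchors the latent ligand in the matrix and a gene on both lists, was at 4.93 to 8.21 CPM in GFP+ MPC and 330 to 410 CPM in GFP+ myoblasts (-5.92 ± 0.35, adjusted p = 6.07e-08, edgeR; -5.17 with length-scaled counts). Its relative Ltbp4 rose, to 112 to 303 CPM in GFP+ MPC against 27.6 to 44.2 CPM in GFP+ myoblasts (2.43 ± 0.38, adjusted p = 0.000169, edgeR). Fbn2, for fibrillin-2 of microfibrils, was at 29.4 to 56.0 CPM in GFP+ MPC and 0.52 to 3.22 CPM in GFP+ myoblasts (4.67 ± 0.49, adjusted p = 6.80e-06, edgeR; 3.89 with length-scaled counts and 5.43 without library 1 of GFP+ myoblasts). The remaining higher gene, Dcn, had 247 counts over the 3 GFP+ MPC libraries, against 1 over those of GFP+ myoblasts, and no fold change is given. Its call was lost without library 2 of GFP+ MPC (adjusted p = 0.114, edgeR) and without any 1 GFP+ myoblast library (adjusted p = 0.0627 to 0.0795, edgeR).

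Receptors and SMADs went both ways. Of 12 genes, 4 were higher and 3 lower in GFP+ MPC against GFP+ myoblasts, at a median of -0.05, and 3 were higher and 7 lower in bulk MPC than in bulk myoblasts, with a median of -0.55. The shares and medians over all genes are those given for the latent complexes. Tgfbr1, which encodes the type I receptor that Repsox inhibits, rose in both, to 110 to 155 CPM in GFP+ MPC against 43.2 to 51.4 CPM in GFP+ myoblasts (log2 fold change 1.49 ± 0.13, adjusted p = 1.23e-06, edgeR), and by 0.74 ± 0.13 in unsorted cells (adjusted p = 0.000254, edgeR). Tgfbr3, for the co-receptor betaglycan, which presents the TGF-beta2 ligand, was at 6.19 to 10.3 CPM in GFP+ MPC and 0.48 to 0.95 CPM in GFP+ myoblasts (3.44 ± 0.69, adjusted p = 0.00113, edgeR). Its increase in bulk MPC (2.26 ± 0.69, adjusted p = 0.0127, edgeR) rested on library 2, without which it was 0.51 (adjusted p = 0.304), and it was also lost with length-scaled counts (1.42, adjusted p = 0.129), in a fit of these groups alone (adjusted p = 0.0664) and without library 1 of bulk myoblasts (adjusted p = 0.0524). Smad3 was higher in bulk MPC than in bulk myoblasts (1.66 ± 0.19, adjusted p = 8.60e-06, edgeR) and in differentiated than in bulk myoblasts (1.20 ± 0.18, adjusted p = 0.000128, edgeR). Of the 7 lower in bulk MPC against bulk myoblasts, Smad6, which encodes the other inhibitory SMAD, had the largest change, at 1.12 to 1.82 CPM in bulk MPC and 5.19 to 10.2 CPM in bulk myoblasts (-2.41 ± 0.38, adjusted p = 0.000140, edgeR). Tgfbr2, for the type II receptor, was at 19.6 to 46.2 CPM in bulk MPC and 60.7 to 71.8 CPM in bulk myoblasts (-1.18 ± 0.27, adjusted p = 0.00218, edgeR). Ski, for a repressor related to SnoN, was at 92.7 to 111 CPM in bulk MPC and 209 to 225 CPM in bulk myoblasts (-1.03 ± 0.14, adjusted p = 3.82e-05, edgeR). Smurf1, for a ubiquitin ligase that works with Smad7, was lower in GFP+ MPC than in GFP+ myoblasts (-1.26 ± 0.13, adjusted p = 5.98e-06, edgeR).

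**Figure D4:**
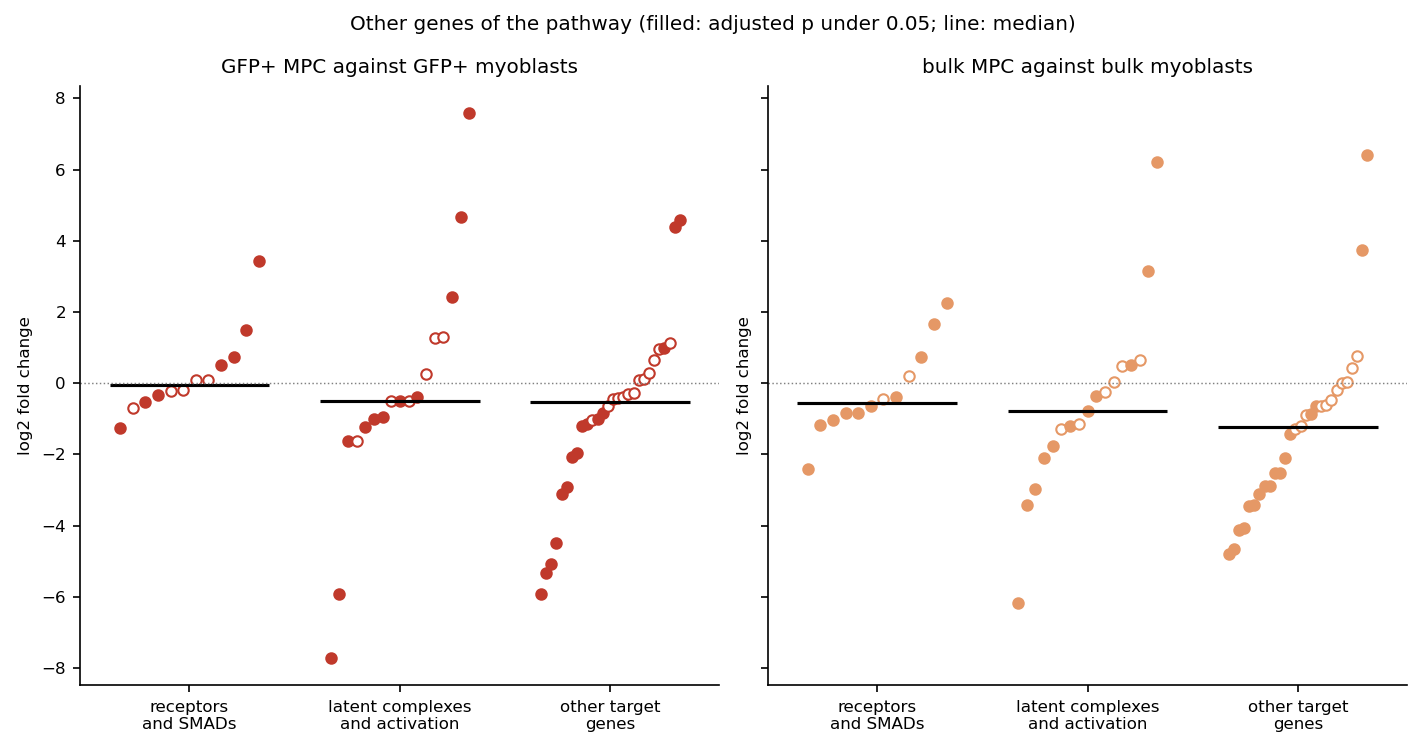
Log2 fold changes of the other pathway genes in GFP+ MPC against GFP+ myoblasts and in bulk MPC against bulk myoblasts, each point 1 gene, sorted by value within its list. Filled points have an adjusted p under 0.05 and black lines are list medians, which for other target genes are -0.54 in sorted and -1.24 in unsorted cells.

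The high-passage library has no replicate, so its values are given without a test. For Tgfb1, Tgfb3, Ltbp2, Pmepa1 and Postn it lay within the range of GFP+ MPC, at 6.13, 44.1, 1.84, 5.02 and 86.7 CPM. Skil was at 20.4 CPM (95% exact binomial interval 18.6 to 22.3, which covers counting error only), above GFP+ MPC and below GFP+ myoblasts. Tgfb2 was at 84.3 CPM (80.7 to 88.2) and Smad7 at 1.07 CPM (0.69 to 1.58), both below GFP+ MPC. Tgfbi, at 4.33 CPM (3.53 to 5.26), was above every replicated library, including the 3.74 CPM of library 2 of bulk MPC. Its ligand pool was 61.4% Tgfb2 by TPM, close to library 2 of GFP+ MPC with 60.4%.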

How the data were processed

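The deposited files hold, per the file headers, the authors' estimated counts and TPM for each transcript, with its length and effective length in bases as other columns. Per the submitters' processing notes, fastp 0.20.0 and kallisto 0.46.1 were used with the build GRCm39. Per the labels' protocols, libraries were stranded, poly(A)-selected and single-end.

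Transcripts were summed per gene with GENCODE M21 on GRCm38, and 1059 of 121798 transcripts did not match (0.478% to 1.05% of counts). That annotation was used for names, for transcript and gene types and for finding genes that overlap a member. Counts were rounded and tested with edgeR 4.0.16 in R 4.3.3, in 1 fit of 15 libraries and 5 groups (TMM, minimum count 10, minimum total 15, 7 comparisons), checked on simulated data. Standard errors were derived from the F statistic. Alternatives were DESeq2 1.42.0, other scalings and filters, length-scaled counts, fewer groups, the replicate block and leaving out each replicate. Within each of the 5 groups, no libraries were duplicates (chi-square per degree of freedom 10.6 to 64.1). Libraries of different groups were not compared in this way.

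Members and lists were chosen with earlier results of these data known. The text names the 9 members, up to 3 list genes in each direction by size, and the 2 genes most like a member. Library names of same-numbered replicates share a prefix in all 5 groups, which the labels do not explain. Their deviations correlated by over 0.1 in every pair only between bulk MPC and bulk myoblasts (0.131 to 0.163). The labels call replicates biological. Protein sequences are not used here. One named list gene is not reported here.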

Additional observations from a re-analysis of the deposited data

Results flagged for a closer look

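The MPC change differed between sorted and unsorted cells, by a test of the difference itself (edgeR), for 5 of the 9 genes, where 37.1% of all genes tested differed. The difference, sorted minus unsorted on the log2 scale, was -1.07 for Tgfb1, 2.75 for Tgfb2, -2.70 for Pmepa1, -1.84 for Skil and 6.46 for Postn. All 5 changes were larger in size in sorted cells. RNA kit and passage of the myoblasts also differ between the sorted and unsorted comparisons, and cannot be told apart from the sort.

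The single high-passage library, which is in no comparison, was above all GFP+ myoblast libraries for Tgfb2 (84.3 CPM), Tgfb3 (44.1 CPM), Tgfbi (4.33 CPM) and Postn (86.7 CPM). It came from a female of another age and from GFP-negative cells, and it has no replicate.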

How the results depend on the processing

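Over 63 fold changes of the 9 genes, 827 of 873 values under alternatives kept direction and side of the threshold, 15 lost the call, 15 gained it and 16 turned round. None of the 498 values of the 36 called changes turned round. Library totals alone shifted the median log2 fold change of all genes to -0.38 from -0.01 in bulk MPC against bulk myoblasts, to -0.25 from -0.03 with differentiation, to -0.08 from 0.07 in bulk MPC against differentiated myoblasts, to 0.46 from -0.01 in GFP+ MPC against bulk MPC, to 0.09 from -0.02 in GFP+ against bulk myoblasts, and to 0.46 from 0.09 for the difference of MPC changes. In the same order it gave 2747 higher and 6985 lower genes (4408 and 4679 with TMM), 2711 and 5805 (3976 and 4441), 2824 and 3972 (3792 and 3019), 7470 and 3522 (5118 and 5232), 2981 and 2261 (1966 and 2701), and 5490 and 1547 (3149 and 2606). It turned round Smad7 in GFP+ MPC against bulk MPC (0.15) and Tgfb3 in the difference of MPC changes (0.22).

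Genes changed in GFP+ against bulk myoblasts numbered 4667, and 2732 without library 3 of bulk myoblasts (2732 to 4128 with each library left out in turn). Leaving out 1 library at a time gave these ranges for fold changes that turned round: in bulk MPC against bulk myoblasts, -2.58 to 1.49 for Tgfbi, -3.07 to 0.50 for Postn and -0.31 to 7.02 for Dcn; against differentiated myoblasts, -3.47 to 0.12 for Tgfbi and -2.23 to 1.16 for Postn; in differentiated against bulk myoblasts, -1.56 to 0.073 for Postn; in GFP+ MPC against bulk MPC, -1.71 to 1.89 for Tgfbi and -5.46 to 0.25 for Col1a1; in the difference of MPC changes, -0.29 to 0.76 for Ltbp2 and -0.40 to 3.66 for Tgfbi. The causes were not tested. In a fit of the compared groups alone, Tgfb1 (adjusted p = 0.0347) and Tgfb2 (adjusted p = 0.0255) passed with differentiation, and Tgfb1 in GFP+ against bulk myoblasts (adjusted p = 0.0483).

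With the replicate block, 7319, 8986, 8222, 6578, 10232, 4404 and 5559 genes changed in the 7 comparisons, against 7556, 9087, 8417, 6811, 10350, 4667 and 5755 without it. In bulk MPC against differentiated myoblasts the block ended the call of Smad7 (adjusted p = 0.0550) and made that of Tgfb2 (adjusted p = 0.0444), which also passed with DESeq2 (0.0414), length-scaled counts (0.0494) and those groups alone (0.00706). It changed no other call of the 9 genes. Tgfbi, with 2 to 101 counts a library, and Ltbp2 in MPC are the genes most limited by depth.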
